A study of Mus musculus with 8 samples.

Results

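The miR-15 and miR-16 family was followed in mouse plasma as 6 mature miRNAs, mmu-miR-15a-5p, mmu-miR-15b-5p, mmu-miR-16-5p, mmu-miR-195a-5p, mmu-miR-497a-5p and mmu-miR-322-5p, among 1881 mouse miRNAs on a one-colour Agilent array. They were taken by name as a family, with earlier results of these data known. Names are written below without the prefix mmu for mouse. Female NMRI mice, an outbred stock, were 3 months old. IMB mice received imatinib, a tyrosine kinase inhibitor, by mouth at 100 mg/kg a day for 9 days in water, DOX mice received doxorubicin, a DNA-damaging anthracycline, in saline into the tail vein in 4 doses of 3 mg/kg given every other day, and CTRL mice received the solvents. An array measured RNA of 300 µl of plasma, pooled over 3 mice of a group, and there were 3 pools for IMB, 3 for DOX and 2 for CTRL. The pooling hides differences between single mice, and the labels call the pools biological replicates. Plasma holds few cells, so its miRNA is mostly RNA that blood cells and tissues have released. A lower level can come, among other sources, from fewer releasing cells, less RNA per cell or less release, and these cannot be told apart here.

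Family members share a seed, the stretch of bases 2 to 8 with which a miRNA pairs to its target messenger RNAs. They are known to restrain proteins of the cell cycle, such as cyclins, and the survival protein BCL2. miR-15a and miR-16-1 lie in a locus often lost in human chronic lymphocytic leukaemia. miR-16 is also abundant in red blood cells, and its level in plasma is known to follow damage to those cells.

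The mature sequences, from RefSeq on build GRCm38.p6, are shown because all the members can be read as variations on 1 shared seed. The seed is in capitals and each sequence runs 5′ to 3′.
miR-15a-5p: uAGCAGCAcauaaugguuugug
miR-15b-5p: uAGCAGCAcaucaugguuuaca
miR-16-5p: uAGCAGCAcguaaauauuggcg
miR-195a-5p: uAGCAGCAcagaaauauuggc
miR-497a-5p: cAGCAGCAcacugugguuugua
miR-322-5p: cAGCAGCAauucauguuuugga

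The seed AGCAGCA was identical in 6 of 6 members. The first base was U in 4 members and C in miR-497a-5p and miR-322-5p. Counting positions from 1 at the 5′ end, miR-16-5p and miR-195a-5p differed in only 2 of 21 compared bases, G10A and U11G. miR-15a-5p and miR-15b-5p differed in 4 of 22 bases, A12C, G20A, U21C and G22A. miR-16-5p and miR-497a-5p differed most, in 11 of 22 bases.

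The members come from 4 small clusters. miR-15a-5p lies at chr14:61632075-61632096 on the minus strand, with a copy of miR-16-5p (Mir16-1) at chr14:61631936-61631957, 117 bases away. Both fall within the span of Dleu2, a long non-coding RNA gene. miR-15b-5p lies at chr3:69009775-69009796 on the plus strand, 121 bases from the other copy of miR-16-5p (Mir16-2) at chr3:69009918-69009939. Both fall within the span of Smc4, which encodes a subunit of condensin. Both miR-16 copies give the same mature sequence, so the array reads them as 1 miRNA. miR-497a-5p at chr11:70234730-70234751 and miR-195a-5p at chr11:70235062-70235082 lie 310 bases apart on the plus strand. miR-322-5p, the mouse counterpart of human miR-424, lies at chrX:53054306-53054327 on the minus strand, within the span of the long non-coding RNA gene C430049B03Rik and 256 bases from miR-503.

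All 6 members were detected on 8 of 8 arrays by the scanner's own call and by the spot rule used here. Each was measured by 2 probes, with 11 to 15 usable spots per probe and array. Values below are scaled signals on the log2 scale unless stated otherwise. The 75th percentile of the signal served to scale the arrays, because before scaling it ran from 196 to 425 in the IMB pools, from 213 to 267 in the DOX pools and from 300 to 349 in the CTRL pools. The number of mouse miRNAs detected was 266 to 339 in the IMB pools, 258 to 279 in the DOX pools and 297 to 327 in the CTRL pools. Levels of different miRNAs are not compared, since probes differ in brightness. Differences, their standard errors (SE) and their p-values are from limma over all 294 tested miRNAs and 8 pools, with Benjamini-Hochberg adjustment and a threshold of 0.05. Precision is limited by the small number of arrays.

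None of the 6 members passed the threshold in any of the comparisons. For IMB minus CTRL 0 of 6 members passed, beside 1.02% of all tested miRNAs. For DOX minus CTRL 0 of 6 passed, beside 0.340% of all. For IMB minus DOX 0 of 6 passed, beside 1.02% of all. At an unadjusted limma p under 0.05, 0 members stood out in IMB minus CTRL, where 7.82% of all miRNAs did. At that level miR-15a-5p and miR-15b-5p were lower in DOX than in CTRL pools, where 3.40% of all miRNAs were lower. The same 2 were higher in IMB than in DOX pools, where 5.78% of all miRNAs were higher. Values are therefore given as levels and differences, with their intervals.

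**Figure D1:**
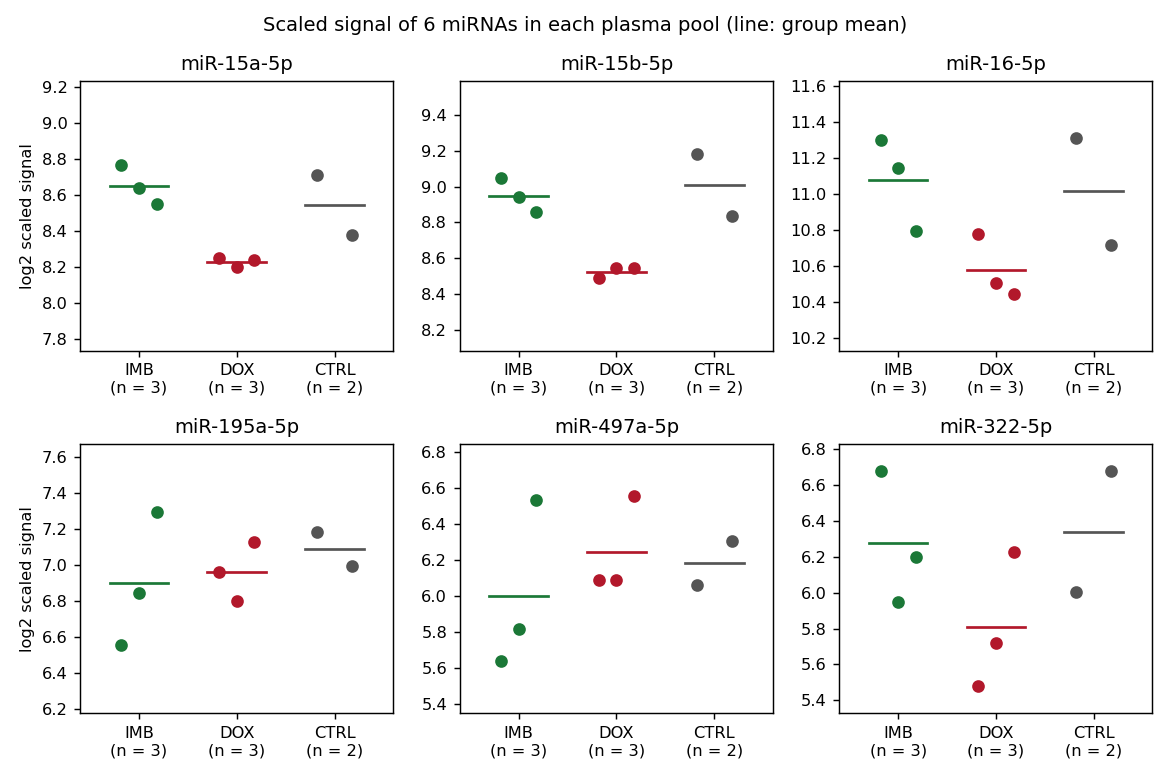
Log2 scaled signal of the 6 members in each plasma pool, with IMB, DOX and CTRL from left to right and a line at each group's mean; each panel spans the same number of log2 units. For miR-15a-5p and miR-15b-5p the 3 DOX pools lie close together and below all IMB and CTRL pools, while for the other members DOX pools overlap CTRL pools.

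miR-15a-5p, the partner of miR-16-1, had 8.77, 8.64 and 8.55 in the IMB pools, 8.25, 8.20 and 8.24 in the DOX pools, and 8.71 and 8.38 in the CTRL pools. In the DOX pools it was uniformly below the 5 other pools, and the IMB values overlapped those of CTRL. The group means were 8.65 ± 0.11 (SD, n = 3) for IMB, 8.23 ± 0.03 (SD, n = 3) for DOX and 8.55 ± 0.24 (SD, n = 2) for CTRL. DOX minus CTRL was -0.31 (SE 0.11, 95% interval -0.59 to -0.04, limma adjusted p = 0.478), a ratio of 0.804. IMB minus DOX was 0.42 (SE 0.10, 95% interval 0.17 to 0.67, limma adjusted p = 0.185), a ratio of 1.34. IMB minus CTRL was 0.11 (SE 0.11, 95% interval -0.17 to 0.38, limma adjusted p = 0.898). Taking IMB, CTRL and DOX from high to low, IMB and CTRL did not differ beyond their spread.

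miR-15b-5p, the partner of miR-16-2 on chromosome 3, had 9.05, 8.94 and 8.86 in the IMB pools, 8.49, 8.55 and 8.55 in the DOX pools, and 9.18 and 8.83 in the CTRL pools. All DOX values again lay below the 5 others. The means were 8.95 ± 0.09 (SD, n = 3) for IMB, 8.53 ± 0.03 (SD, n = 3) for DOX and 9.01 ± 0.25 (SD, n = 2) for CTRL. DOX minus CTRL was -0.48 (SE 0.11, 95% interval -0.75 to -0.21, limma adjusted p = 0.227), a ratio of 0.716. IMB minus DOX was 0.42 (SE 0.10, 95% interval 0.18 to 0.67, limma adjusted p = 0.185). The IMB pools lay between the CTRL pools, with a difference of -0.06 (95% interval -0.33 to 0.22, limma adjusted p = 0.974).

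miR-16-5p, read from both clusters at once, had 11.30, 11.14 and 10.79 in the IMB pools, 10.77, 10.51 and 10.44 in the DOX pools, and 11.31 and 10.72 in the CTRL pools. Between themselves the CTRL pools differed more than the group means did, and 1 DOX pool lay above the lower CTRL pool. The lowest IMB pool lay just above the highest DOX pool. DOX minus CTRL was -0.44 (SE 0.24, 95% interval -1.02 to 0.15, limma adjusted p = 0.720). IMB minus DOX was 0.50 (SE 0.21, 95% interval -0.02 to 1.03, limma adjusted p = 0.407), and IMB minus CTRL was 0.06 (95% interval -0.52 to 0.65, limma adjusted p = 1). DOX was the lowest group on average, but neither of these intervals excludes 0.

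miR-195a-5p, whose sequence is closest to that of miR-16-5p, had 6.55, 6.84 and 7.30 in the IMB pools, 6.96, 6.80 and 7.13 in the DOX pools, and 7.18 and 7.00 in the CTRL pools. All groups overlapped, and the IMB pools spanned the whole range of the other 5. The means were 6.90 ± 0.37 (SD, n = 3) for IMB, 6.96 ± 0.16 (SD, n = 3) for DOX and 7.09 ± 0.13 (SD, n = 2) for CTRL. The differences were -0.19 (SE 0.23) for IMB minus CTRL, -0.13 (SE 0.23) for DOX minus CTRL and -0.07 (SE 0.20) for IMB minus DOX, with limma adjusted p from 0.919 to 0.999.

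miR-497a-5p, its cluster partner, had 5.64, 5.82 and 6.54 in the IMB pools, 6.09, 6.09 and 6.55 in the DOX pools, and 6.06 and 6.31 in the CTRL pools. All groups overlapped, and the third pool was the highest in both IMB and DOX. DOX minus CTRL was 0.06 (SE 0.31, 95% interval -0.70 to 0.82, limma adjusted p = 1), and its sign turned under 9 alternatives. IMB minus CTRL was -0.19 (SE 0.31) and IMB minus DOX was -0.25 (SE 0.27), with limma adjusted p of 0.974 and 0.811. It was the only member with a probe not called detected on each array, which happened for 1 of its 2 probes in IMB pool 1.

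miR-322-5p, made from the X chromosome and known from muscle and endothelial cells, had 6.68, 5.95 and 6.20 in the IMB pools, 5.48, 5.72 and 6.23 in the DOX pools, and 6.00 and 6.67 in the CTRL pools. Of all pools 2 DOX pools were lowest, and the third DOX pool lay among the others. DOX minus CTRL was -0.53 (SE 0.34, 95% interval -1.38 to 0.33, limma adjusted p = 0.781), and IMB minus DOX was 0.47 (SE 0.31, 95% interval -0.30 to 1.23, limma adjusted p = 0.661). IMB minus CTRL was -0.06 (SE 0.34, limma adjusted p = 1). With normexp background correction DOX minus CTRL was -0.14 and IMB minus DOX was 0.11. Leaving out CTRL pool 1 brought DOX minus CTRL to -0.87, leaving out CTRL pool 2 brought it to -0.19, and IMB minus DOX was 0.27 without IMB pool 1 and 0.30 without DOX pool 1. The sizes for miR-322-5p thus turn on single pools. Normexp was run with an offset of 50, while scaled signals of miR-322-5p were 44.6 in DOX pool 1 and 102 in IMB pool 1. Such an offset shrinks log2 differences of a dim miRNA by construction. The smaller normexp values therefore do not show a dependence on background. Its spread between pools of a group, an SD of 0.40, was the widest of the 6 members.

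**Figure D2:**
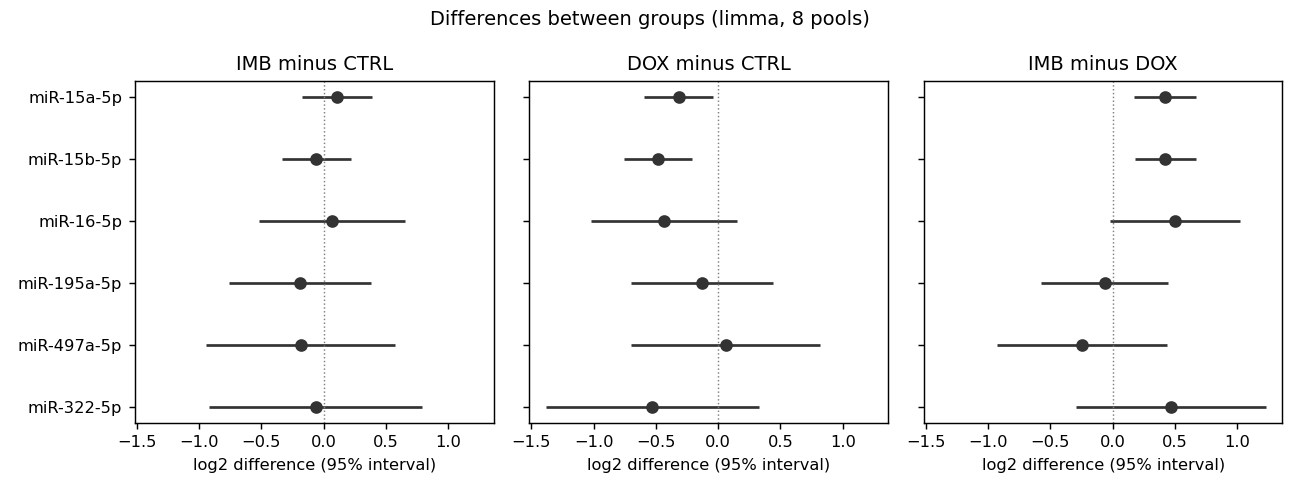
Log2 differences (points) with 95% intervals (lines) from limma for IMB minus CTRL, DOX minus CTRL and IMB minus DOX, with a dotted line at 0. The intervals of miR-15a-5p and miR-15b-5p lie below 0 for DOX minus CTRL and above 0 for IMB minus DOX, before adjustment for 294 tests, while all other intervals span 0.

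Across the family, the difference was above 0 for 2 of 6 members in IMB minus CTRL, beside 51.4% of all tested miRNAs, and each of the 6 signs turned under at least 1 alternative. In DOX minus CTRL it was below 0 for 5 of 6 members, all but miR-497a-5p, beside 40.8% of all. In IMB minus DOX it was above 0 for 4 of 6 members, all but miR-195a-5p and miR-497a-5p, beside 41.5% of all. With no scaling, or with scaling to reference miRNAs, these 2 were above 0 as well. The median over all miRNAs then rose too, to 0.23 and 0.30. The members' median difference was -0.06 in IMB minus CTRL, where the median over all miRNAs was 0.01. It was -0.38 in DOX minus CTRL and 0.42 in IMB minus DOX, where the medians over all miRNAs were 0. The 10th percentile of all miRNAs was -0.32 in DOX minus CTRL, and miR-15b-5p, miR-16-5p and miR-322-5p were beyond that value. The 90th percentile was 0.32 in IMB minus DOX, and miR-15a-5p, miR-15b-5p, miR-16-5p and miR-322-5p were beyond it. These comparisons share pools, so they are not separate evidence of a direction.

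Pools of 2 groups did not overlap for 0 of 6 members in IMB against CTRL, beside 10.9% of all miRNAs with IMB higher and 6.80% with IMB lower. All DOX pools lay below all CTRL pools for 2 of 6 members, miR-15a-5p and miR-15b-5p, beside 9.86% of all miRNAs. All IMB pools lay above all DOX pools for 3 of 6 members, miR-15a-5p, miR-15b-5p and miR-16-5p, beside 6.80% of all.

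**Figure D3:**
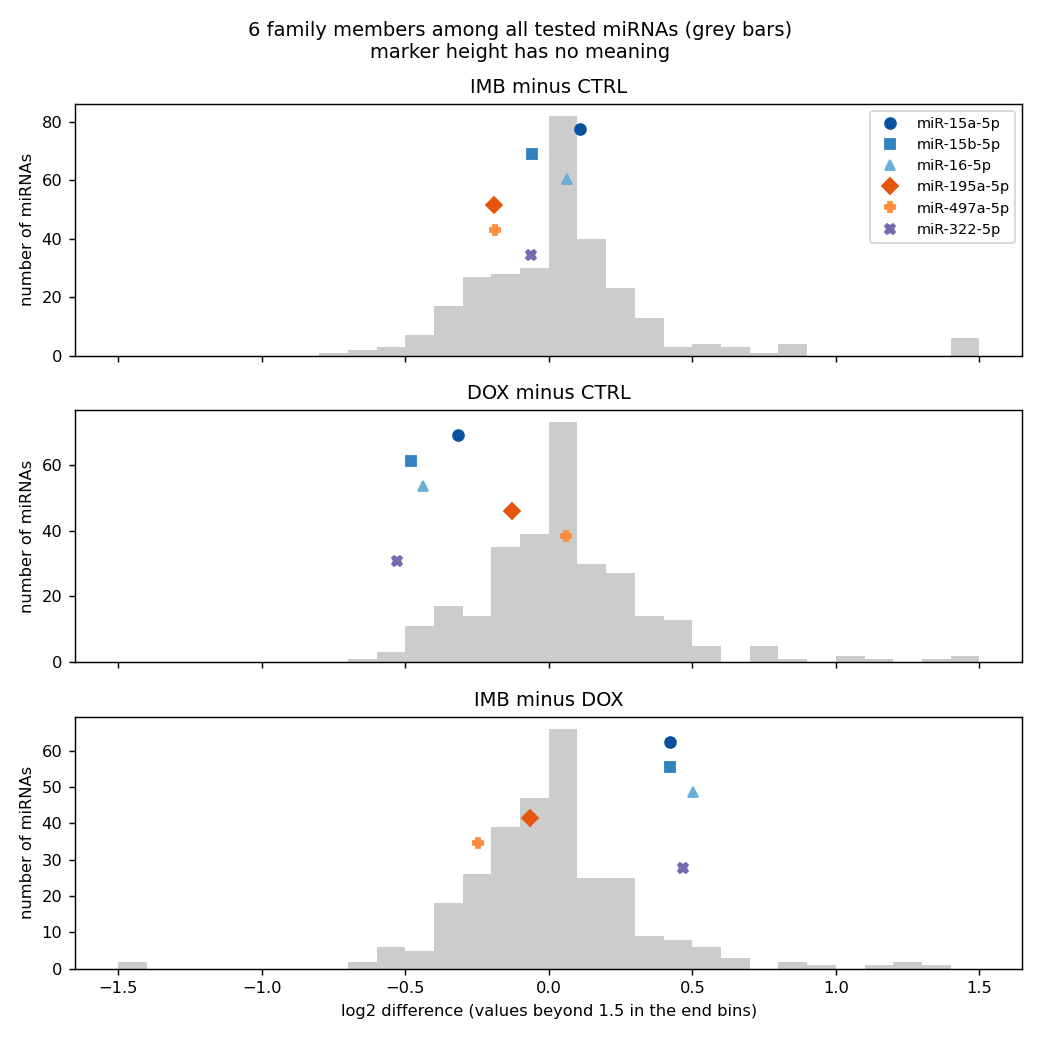
Histograms of the log2 differences of all 294 tested miRNAs (grey bars; vertical axis, number of miRNAs) with the 6 members marked at their own difference; the height of a marker carries no value. The members lie in the middle of the distribution for IMB minus CTRL, while in IMB minus DOX miR-15a-5p, miR-15b-5p, miR-16-5p and miR-322-5p lie at 0.42 to 0.50.

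The 2 probes of each member gave differences of the same sign in 18 of 18 pairs of a member and a comparison. Their differences were within 0.09 of each other except for miR-15b-5p. For miR-15b-5p DOX minus CTRL was -0.37 with the dimmer probe and -0.51 with the brighter one, and IMB minus DOX was 0.27 and 0.47. The spots set a standard error of 0.01 to 0.04 on an array's value of a member, while the SD between pools of a group was 0.13 for miR-15a-5p and miR-15b-5p, 0.27 for miR-16-5p, 0.26 for miR-195a-5p, 0.35 for miR-497a-5p and 0.40 for miR-322-5p. The spread between pools was therefore far wider than the spot noise. With Agilent's own total signal per miRNA in place of the spot averages, DOX minus CTRL was -0.33 for miR-15a-5p, -0.50 for miR-15b-5p and -0.45 for miR-16-5p.

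The size of the DOX differences depended on the scaling and on which control was kept. With no scaling, DOX minus CTRL was -0.74 for miR-15a-5p, -0.90 for miR-15b-5p and -0.86 for miR-16-5p, and IMB minus DOX was 0.73, 0.73 and 0.81, while the medians over all miRNAs shifted to -0.32 and 0.23. With scaling to reference miRNAs IMB minus DOX was 0.80, 0.80 and 0.88 for the same members, beside a median of 0.30 over all. With it DOX minus CTRL was -0.49 for miR-15a-5p. The references, miR-23a-3p and miR-24-3p, were themselves brighter on every DOX array than on any other array. Their means were 11.33 and 10.22 for DOX, against 10.93 and 9.86 for IMB. Scaling to them therefore raises IMB minus DOX and lowers DOX minus CTRL by construction. Without CTRL pool 1, DOX minus CTRL was -0.15 for miR-15a-5p, -0.31 for miR-15b-5p and -0.14 for miR-16-5p. Without CTRL pool 2 the same differences were -0.48, -0.66 and -0.73. IMB minus DOX rests on 3 pools a group and ran from 0.36 to 0.47 for miR-15a-5p, from 0.37 to 0.47 for miR-15b-5p and from 0.39 to 0.64 for miR-16-5p when 1 pool at a time was left out. All arrays lay on 1 slide, in 2 rows. In row 1, with 1 IMB, 2 DOX and 1 CTRL array, DOX minus CTRL was -0.49 for miR-15a-5p, -0.66 for miR-15b-5p and -0.67 for miR-16-5p. In row 2, with 2 IMB, 1 DOX and 1 CTRL array, it was -0.14, -0.29 and -0.27. IMB minus DOX for these 3 members was 0.53 to 0.66 in row 1 and 0.35 to 0.52 in row 2. For miR-322-5p IMB minus DOX was 1.08 in row 1 and -0.15 in row 2.

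Red cell miRNAs varied alongside miR-15a-5p, miR-15b-5p and miR-16-5p. miR-451a, an abundant red cell miRNA made by the protein AGO2 without the enzyme Dicer, had 15.12, 15.14 and 14.81 in the IMB pools, 14.55, 14.04 and 13.95 in the DOX pools, and 15.03 and 14.28 in the CTRL pools. Of 8 listed red cell miRNAs 6 were tested, and miR-144-5p and miR-363-3p were detected on no array. The tested ones were lower in DOX than in CTRL pools in 6 of 6 cases, beside 40.8% of all tested miRNAs, with a median of -0.44. Their median was 0.71 in IMB minus DOX and 0.21 in IMB minus CTRL. The summed linear scaled signal of the list was 31460 to 39917 in the IMB pools, 17826 to 26857 in the DOX pools and 22523 to 37205 in the CTRL pools. miR-451a makes up most of each sum, so the sums mainly restate its values. Among the listed red cell miRNAs miR-144-3p, an erythroid miRNA, passed the threshold in IMB minus CTRL (0.82, limma adjusted p = 0.0077, higher in 3 of 3 pools) and in IMB minus DOX (1.20, limma adjusted p = 0.00090, higher in 3 of 3 pools). Its IMB minus CTRL call was lost in 12 of 26 alternatives, among them no scaling, scaling to reference miRNAs, the authors' deposited table and leaving out IMB pool 2 or IMB pool 3 (limma adjusted p of 0.051 and 0.055), with limma adjusted p from 0.0055 to 1 over all 26. Its IMB minus DOX call was lost in 2 of 26, with no scaling (limma adjusted p = 0.133) and with miR-451a relative to miR-23a-3p as a covariate (limma adjusted p = 0.260).

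Of the miRNAs listed for platelets, lymphocytes, myeloid cells, endothelium, liver and muscle, 0 passed the threshold in any comparison. Of all tested miRNAs 1.02% passed in IMB minus CTRL, 0.340% in DOX minus CTRL and 1.02% in IMB minus DOX. Their medians in IMB minus DOX were -0.42 for platelets, 0.01 for lymphocytes, -0.25 for myeloid cells, -0.42 for endothelium, -0.05 for liver and 0.85 for muscle. In DOX minus CTRL the medians were 0.18, -0.24, -0.19, 0.22, 0.50 and 1.30 in the same order. The platelet list shares miR-126a-3p with endothelium and miR-223-3p with myeloid cells, so these medians are not separate. It also holds miR-24-3p, a reference miRNA of the scaling alternative. Of 6 listed muscle miRNAs 3 were tested. Lower signals were raised to a floor of log2 4.39, which set the CTRL values of miR-133a-3p and miR-1a-3p. It also set miR-133a-3p in IMB pool 3. The sizes of the muscle medians thus depend on the floor. The other tested muscle miRNA, miR-133b-3p, lay above it in every pool, with means of 6.95 for IMB, 6.27 for DOX and 4.79 for CTRL. Muscle miRNAs varied most between pools, with summed linear signals of 99.6 to 1117 in the IMB pools, 114 to 318 in the DOX pools and 55.9 to 63.6 in the CTRL pools.

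An index of red cell RNA, defined as log2 miR-451a less log2 miR-23a-3p, was 4.09 ± 0.32 (SD, n = 3) for IMB, 2.85 ± 0.26 (SD, n = 3) for DOX and 3.51 ± 0.47 (SD, n = 2) for CTRL. Its 2 parts moved in opposite directions, none past the threshold. In IMB minus DOX miR-451a differed by 0.84 and miR-23a-3p by -0.40, and in DOX minus CTRL by -0.47 and 0.19. The gaps in the index thus do not come from miR-451a alone. With this index as a covariate, DOX minus CTRL became -0.18 for miR-15a-5p, -0.36 for miR-15b-5p and -0.05 for miR-16-5p. IMB minus DOX became 0.17 for miR-15a-5p and 0.21 for miR-15b-5p, and turned to -0.22 for miR-16-5p. For miR-322-5p the differences grew, to -1.17 in DOX minus CTRL (limma adjusted p = 0.639) and 1.66 in IMB minus DOX (limma adjusted p = 0.535). The index differs between the groups, so the fit can hardly separate it from treatment. The part of red cell RNA in the family's differences was not tested beyond these values.

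**Figure D4:**
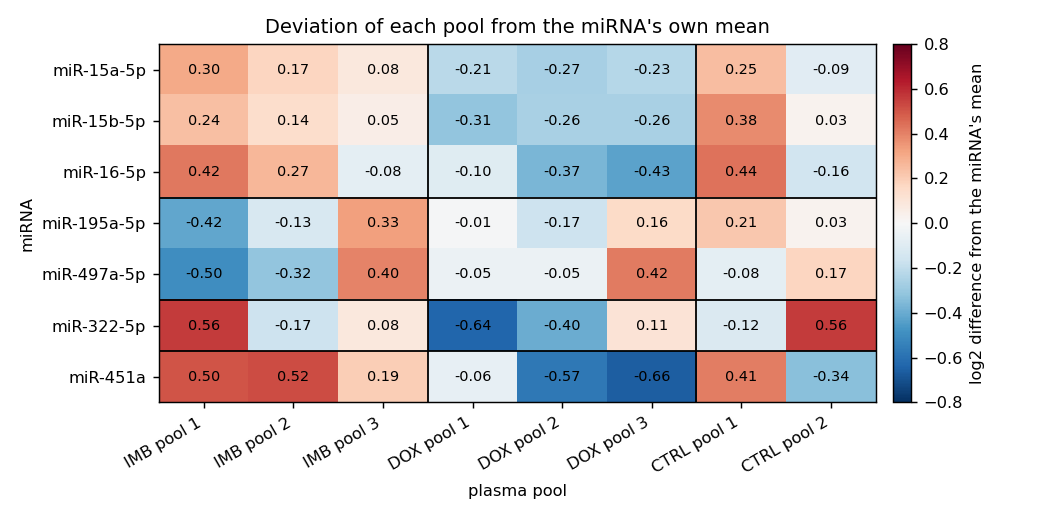
Deviation of each pool (columns, IMB, DOX and CTRL from left to right) from each miRNA's own mean over the 8 pools, in log2 units, for the 6 members and the red cell miRNA miR-451a (rows). miR-15a-5p, miR-15b-5p, miR-16-5p and miR-451a share high values in IMB pools 1 and 2 and CTRL pool 1, whereas miR-195a-5p and miR-497a-5p are high in the third IMB and DOX pools.

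Over the 8 pools miR-15a-5p, miR-15b-5p and miR-16-5p varied together, and miR-322-5p passed the test with no other member. There were 21 relations, 15 between members and 6 with miR-451a, chosen after the values were seen. Of these, 6 passed an exact permutation test of Pearson's r and 5 of Spearman's rho after Benjamini-Hochberg adjustment. Passing thus describes values already seen and is not separate support. The permutation treats pools of all groups as exchangeable, so group differences and array scaling also enter r. miR-15a-5p and miR-15b-5p, from different chromosomes, gave r = 0.948 (exact permutation p = 0.00089, adjusted p = 0.0099) and rho = 0.881 (exact permutation p = 0.0072, adjusted p = 0.038), and r = 0.947 without the 2 pools farthest from the median. miR-15a-5p and miR-16-5p gave r = 0.935 (exact permutation p = 0.0013, adjusted p = 0.0099) and rho = 0.929 (exact permutation p = 0.0022, adjusted p = 0.038), and 0.890 without 2 pools. miR-15b-5p and miR-16-5p gave r = 0.881 (exact permutation p = 0.0074, adjusted p = 0.031) and rho = 0.857 (exact permutation p = 0.011, adjusted p = 0.045), and 0.944 without 2 pools. After each group's mean was taken out, r over all pools was 0.959, 0.910 and 0.807 for these 3 pairs. These values carry no test. The CTRL pools, with an SD of 0.24 for miR-15a-5p and 0.25 for miR-15b-5p, were the most spread for these members and weigh most in r. The DOX pools went another way. There miR-15b-5p was lowest in pool 1 (8.49), where miR-15a-5p (8.25) and miR-16-5p (10.77) were highest. A slide row holds 4 arrays, too few for a correlation within it.

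miR-451a gave r = 0.940 (exact permutation p = 0.0014, adjusted p = 0.0099) and rho = 0.905 (exact permutation p = 0.0046, adjusted p = 0.038) with miR-16-5p, and 0.870 without 2 pools. With miR-15a-5p it gave r = 0.919 (exact permutation p = 0.0045, adjusted p = 0.023) and rho = 0.881 (exact permutation p = 0.0072, adjusted p = 0.038), and 0.867 without 2 pools. With miR-15b-5p the relation missed the threshold (r = 0.804, exact permutation p = 0.024, adjusted p = 0.072, rho = 0.762, exact permutation p = 0.037, adjusted p = 0.096, and r = 0.646 without 2 pools). miR-195a-5p and miR-497a-5p gave r = 0.823 (exact permutation p = 0.013, adjusted p = 0.045), but rho = 0.619 (exact permutation p = 0.11, adjusted p = 0.24) and r = 0.531 without 2 pools, so that relation rests on IMB pools 1 and 3. miR-16-5p and its near copy miR-195a-5p gave r = -0.270 (exact permutation p = 0.52, adjusted p = 0.78) and rho = 0 (adjusted p = 1), and -0.168 without 2 pools.

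Ratios within an array do not depend on the scaling, and only their change between groups is read. The log2 ratio of miR-16-5p to miR-451a was -3.82, -4.00 and -4.02 in the IMB pools, -3.78, -3.54 and -3.51 in the DOX pools, and -3.72 and -3.56 in the CTRL pools. It differed by 0.03 in DOX minus CTRL and by -0.30 in IMB minus CTRL, with all IMB pools below the others. In DOX minus CTRL the scaled signals of miR-16-5p and miR-451a differed alike, by -0.44 and -0.47, while in IMB minus CTRL they differed by 0.06 and 0.37, none of them past the threshold. The ratio of miR-15b-5p to miR-451a differed by -0.01 in DOX minus CTRL and by -0.43 in IMB minus CTRL. The ratio of miR-195a-5p to miR-497a-5p overlapped between all groups.

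The log2 ratio of miR-15a-5p to miR-15b-5p was -0.28, -0.31 and -0.31 in the IMB pools, -0.24, -0.35 and -0.31 in the DOX pools, and -0.47 and -0.46 in the CTRL pools. Both drug groups lay above the controls, by 0.17 for IMB and 0.17 for DOX. With the brighter miR-15b-5p probe the gap to CTRL held with either miR-15a-5p probe, at 0.14 to 0.17 for IMB and 0.18 to 0.22 for DOX. With the dimmer one it was 0.19 to 0.22 for IMB, while DOX differed by 0.04 to 0.08 and overlapped CTRL. The DOX part of this shift thus depends on the probe. The ratio was not tested, and it rests on 2 CTRL pools.

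**Figure D5:**
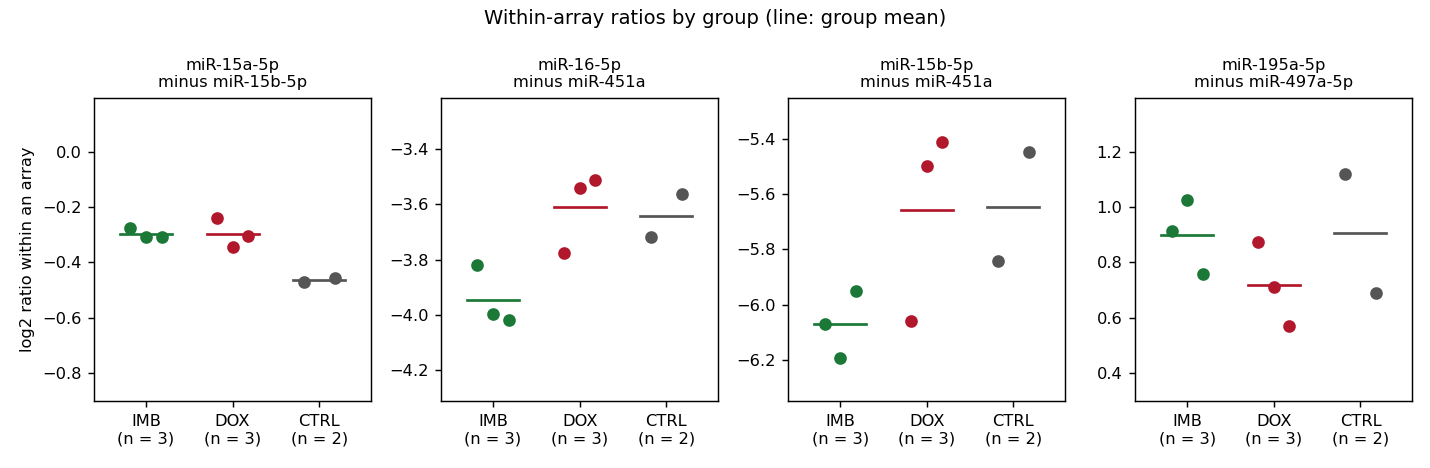
Within-array log2 ratios by group (IMB, DOX and CTRL from left to right; points, pools; lines, group means), each panel spanning the same number of log2 units. The ratio of miR-15a-5p to miR-15b-5p is lowest in the 2 CTRL pools, and the ratios to miR-451a are lowest on average in the IMB pools.

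Outside the members, the RefSeq table held 4 other mouse miRNAs with the same seed among 1679 mature names. They are shown because a probe for a member could meet them.
miR-195b: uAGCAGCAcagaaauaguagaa
miR-6353: uAGCAGCAcguauuuauccuauu
miR-6342: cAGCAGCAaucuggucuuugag
miR-6419: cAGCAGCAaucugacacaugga

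miR-195b shares its first 16 bases with miR-195a-5p and differs at U17G, G19A and C21A. miR-6353 shares its first 12 bases with miR-16-5p. All 4 are on the array and were detected on 0 of 8 arrays, so the signal named miR-195a-5p was not accompanied by a signal at the miR-195b probes.

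The strands opposite the members, which are usually the less stable ones, and further copies were mostly not detected. Of 9 such miRNAs on the array, only miR-322-3p was detected, in IMB pool 2 and CTRL pool 2. Of 11 products of the X-chromosome cluster next to miR-322, 2 were detected on any array. miR-503-5p, which is processed from the same transcript as miR-322, was detected in 3 of 3 IMB pools, 0 of 3 DOX pools and 1 of 2 CTRL pools. miR-542-5p was detected in 2 of 3 IMB pools, 0 of 3 DOX pools and 1 of 2 CTRL pools. Signals of both were below the floor used here, a scaled signal of 20.9, on every array.

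miR-103-3p and miR-107-3p, which are encoded in introns of pantothenate kinase genes, carry the same letters shifted by 1 base, at bases 1 to 7.
miR-103-3p: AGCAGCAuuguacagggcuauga
miR-107-3p: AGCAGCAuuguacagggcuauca

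miR-103-3p had 6.56, 6.84 and 6.65 in the IMB pools, 6.09, 6.33 and 6.14 in the DOX pools, and 6.09 and 6.34 in the CTRL pools. Its IMB pools lay above all others, with 0.47 for IMB minus CTRL (SE 0.13, limma adjusted p = 0.256) and 0.50 for IMB minus DOX (SE 0.11, limma adjusted p = 0.185), neither past the threshold in this fit. Its DOX minus CTRL was -0.03 (limma adjusted p = 1). miR-107-3p differed by 0.12, -0.08 and 0.21 in IMB minus CTRL, DOX minus CTRL and IMB minus DOX, with limma adjusted p of 0.793, 0.926 and 0.407.

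The miRNAs most like each member over the 8 pools, by Pearson's r among 261 miRNAs outside the family, differed between the members. For miR-16-5p they were miR-25-3p (0.984), miR-106b-5p (0.980), miR-93-5p (0.977), miR-486a-5p (0.950) and miR-451a (0.940). For miR-15a-5p and miR-15b-5p miR-106b-5p (0.955 and 0.906), miR-6937-5p (0.950 and 0.919) and miR-25-3p (0.927 and 0.905) were the closest. For miR-195a-5p they were miR-199a-3p (0.958), miR-199b-5p (0.888), miR-143-3p (0.862), miR-214-3p (0.841) and miR-125b-5p (0.759). miR-497a-5p was also most like miR-199a-3p (0.860), and miR-322-5p was most like miR-210-3p (0.960), a miRNA induced by low oxygen. These values describe 8 arrays that share scaling and treatment groups, and carry no test.

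In the authors' deposited table of log2 values, miR-15a-5p was 7.62, 7.41 and 7.50 in the IMB pools, 7.17, 7.06 and 7.14 in the DOX pools, and 7.47 and 7.29 in the CTRL pools. There miR-15b-5p was 7.82, 7.82 and 7.72 in the IMB pools, 7.37, 7.47 and 7.43 in the DOX pools, and 7.95 and 7.75 in the CTRL pools. In the authors' deposited table, too, both had all DOX pools below all others. There miR-16-5p was 10.22, 10.09 and 9.43 in the IMB pools, 9.52, 9.21 and 9.39 in the DOX pools, and 10.09 and 9.64 in the CTRL pools. In the authors' deposited table the lowest IMB pool of miR-16-5p thus lay below the highest DOX pool, while the DOX pools did not overlap CTRL.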

How the data were processed

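Plasma RNA of 8 pools (IMB 3, DOX 3, CTRL 2) was hybridised to one-colour arrays on 1 slide, with 3.1 µl of RNA labelled per pool. The deposited scanner files hold linear spot intensity, and the submitters' processing notes name Agilent Feature Extraction 11.5.1.1. This processed intensity has had background subtracted, per the file headers. The authors' deposited table gives 1902 rows on the log2 scale, with normalization not given in the sources used here, and served as an alternative.

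Spots marked as outliers were dropped and the others averaged per probe. Detection was called where over 50% of its spots were well above background. The 75th percentile of 454 probes, those detected on 8 of 8 arrays, set the scale of an array. A miRNA's linear value is the mean of its probes, raised to a floor of 20.9 (log2 4.39) where lower, before taking log2. The floor is the 1st percentile of an array's detected probes, as its median over arrays. The 294 miRNAs detected on every array of a group entered 2-sided limma fits (version 3.58.1, lmFit and eBayes, R 4.3.3), with 5 residual and 0.605 prior degrees of freedom. The fit covered 8 pools because there are 2 controls, and its steps were tested on simulated data. Relations used exact permutation in scipy 1.17.1, and figures used matplotlib 3.10.9.

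Named miRNAs were the members, their opposite strands, copies and neighbours, miRNAs with the same or a shifted seed, the 5 most alike per member, and 3 red cell references. Members and lists were chosen with earlier results of these data known, and the relations and the ratios per probe after seeing the values. Host genes and sequences come from RefSeq (GRCm38.p6), where 6 of 6 members matched. The array header names another build, so no array coordinates were used. No probe sequence was used here.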

Additional observations from a re-analysis of the deposited data

How the results depend on the processing

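Under 18 other settings and 8 fits that leave out 1 pool each, the count of members past the threshold stayed at 0 of 6 in each comparison, and the lowest limma adjusted p of a member was 0.056 (miR-15b-5p, DOX minus CTRL, without CTRL pool 2). With 1 control left, that pool is assumed to vary like the other groups. Few miRNAs of any kind passed in these fits. In IMB minus CTRL 0 of 294 did with no scaling, 3 with quantile normalization and 12 without IMB pool 1. In DOX minus CTRL 0 of 294 did with the red cell index and 2 with Agilent's total signal. The count of 0 of 6 is thus near the share over all, and is not a result about the members. Of 18 member differences 8 kept their sign throughout, among them DOX minus CTRL of miR-15a-5p, miR-15b-5p, miR-16-5p, miR-195a-5p and miR-322-5p. The other 10 turned, and the cause was not tested. Scaling shifted all miRNAs. With no scaling the median over all was -0.32 in DOX minus CTRL and 0.23 in IMB minus DOX. With scaling to reference miRNAs (miR-23a-3p, miR-24-3p) it was 0.19 in IMB minus CTRL and 0.30 in IMB minus DOX. Both references were on average lowest in IMB and highest in DOX. In IMB minus CTRL, no scaling gave -0.0077 for miR-15a-5p and -0.051 for miR-16-5p, and scaling to reference miRNAs gave 0.15 for miR-15b-5p, 0.017 for miR-195a-5p, 0.15 for miR-322-5p and 0.022 for miR-497a-5p. For miR-16-5p quantile normalization gave -0.10 and the median of detected probes -0.0096. The red cell index as a covariate gave -0.012 for miR-15a-5p, -0.27 for miR-16-5p, 0.49 for miR-322-5p and 0.068 for miR-497a-5p. In DOX minus CTRL, miR-497a-5p was -0.021 with the percentile over all probes, -0.36 with no scaling, -0.029 with the median of detected probes, -0.11 with scaling to reference miRNAs, -0.027 in the authors' deposited table and -0.23 with the red cell index. In IMB minus DOX, miR-195a-5p was 0.020 with the percentile over all probes, 0.24 with no scaling and 0.32 with scaling to reference miRNAs. There miR-497a-5p was 0.061 with no scaling, 0.14 with that scaling and 0.30 with the red cell index, and miR-16-5p was -0.22 with the red cell index. Leaving out 1 pool, IMB minus CTRL ran from -0.060 to 0.27 for miR-15a-5p, from -0.23 to 0.12 for miR-15b-5p, from -0.23 to 0.36 for miR-16-5p and from -0.40 to 0.27 for miR-322-5p. DOX minus CTRL of miR-497a-5p ran from -0.10 to 0.18 and IMB minus DOX of miR-195a-5p from -0.26 to 0.11.

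The labels number the pools alike in each group. Deviations of same-numbered pools from their group means correlated between -0.24 and 0.40 over 294 miRNAs, and not every pair exceeded 0.1. The labels do not say whether a number marks a shared day or batch. These values cannot settle it, since deviations of the 2 CTRL pools mirror each other by construction. The main fit left the numbers out. With the replicate block, 0 of 6 members passed in each comparison. Of all 294 miRNAs 2 passed in IMB minus CTRL and 0 in DOX minus CTRL in that fit. There miR-497a-5p turned to -0.15 in DOX minus CTRL. The same fit gave -0.29 for miR-15a-5p, -0.46 for miR-15b-5p and -0.33 for miR-16-5p in DOX minus CTRL. Among the other miRNAs described, miR-103-3p passed in IMB minus CTRL (limma adjusted p = 0.017) and IMB minus DOX (limma adjusted p = 0.0045) with this block, which was 1 of 26 alternatives for each. For the dim miR-322-5p no scaling gave -0.95 in DOX minus CTRL and 0.77 in IMB minus DOX. Normexp background correction gave -0.14 and 0.11, but its offset of 50 shrinks differences of dim members by construction.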
